A study of Mus musculus with 27 samples.

Results

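Mural cells, the pericytes and smooth muscle cells that wrap the endothelium of brain vessels, were followed in mouse brain through 8 of their genes, Notch3, Pdgfrb, Rgs5, Vtn, Abcc9, Acta2, Myh11 and Tagln. The members were found by matching the gene identifiers of the count tables to these symbols, which gave 8 of 52636 identifiers. The set was chosen by name for known mural expression, with the lower level of Notch3 in enhancer-deleted frontal cortex already known, so the genotype contrast of the members in frontal cortex is given below as a description, from which no support is drawn. The question was whether the lower Notch3 went together with lower levels of the other mural genes. All 8 members passed the filter on low counts, which asked for at least 1 CPM (counts scaled to a common library total) in every library.

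Pericytes sit on capillaries, where PDGF-B released by endothelial cells binds the receptor PDGFRB on the pericyte and keeps it recruited to the vessel. Smooth muscle cells ring the arterioles and contract through actin and myosin. Both carry NOTCH3, a receptor that is cut upon binding of a Jagged or Delta ligand on a neighbouring cell and whose inner part then acts with the DNA-binding protein RBPJ, and mutations of human NOTCH3 cause CADASIL, a disease of small brain arteries in which vascular smooth muscle is lost.

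Mice of the 129S1 strain at 2.5 months of age were either wild type or homozygous for a 4.9 kb deletion between H19 and Igf2 that removes an enhancer (Igf2enh-/-). The deletion is in every cell of the mouse and leaves 1 loxP site behind. Total RNA depleted of ribosomal RNA (500 ng per library) was sequenced as 75 bp single-end reads from frontal cortex of 6 wild-type mice (3 females, 3 males) and 6 Igf2enh-/- mice (3 females, 3 males), and from striatum of 7 wild-type mice (3 females, 4 males) and 8 Igf2enh-/- mice (4 females, 4 males). Libraries are named by the number in their label, and it is not known from the labels which libraries of the regions share a mouse.

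Libraries of frontal cortex held 24929068 to 30979248 counts and those of striatum 23686945 to 33926904. Igf2 itself had 52.0 to 107 CPM (median 71.35) in wild-type and 88.4 to 173 CPM (median 119.2) in Igf2enh-/- frontal cortex. In striatum it had 34.1 to 44.0 CPM (median 37.05) in wild-type and 46.0 to 258 CPM (median 51.8) in Igf2enh-/- mice, the top value far above that median. The regions matched their labels. The summed level of 4 genes of striatal medium spiny neurons was 54.2 to 92.2 CPM in frontal cortex and 1377 to 3635 CPM in striatum, while that of 4 genes of cortical projection neurons was 1858 to 2088 CPM in frontal cortex and 17.5 to 937 CPM in striatum, with the highest striatal level of all 4 in wild-type library 20. Library 15 (Igf2enh-/-, striatum) stood apart by 14 choroid plexus genes, whose sum was 4655 CPM there and at most 370 CPM in the other striatal libraries. Library 1 (Igf2enh-/-, frontal cortex) stood apart by smooth muscle genes, and values of named genes that moved by more than 1.5 times without it are given both ways.

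Promoter sequence from RefSeq (GRCm38.p6), 250 bases before to 50 bases after a start that need not be the outer end of the gene's span, was matched for 5 of the 8 members. It is shown for Notch3, the member around which the set was chosen, and for Rgs5 and Vtn, the pair of members whose levels moved most closely together in striatum. All 3 are written in the direction of transcription, and capitals mark TGGGAA or its reverse complement, the core letters that RBPJ binds. Notch3 spans chr17:32120820-32166896 and its window is chr17:32166841-32167140 on the minus strand. The window of Rgs5 is chr1:169655251-169655550 on the plus strand and that of Vtn is chr11:78498870-78499169 on the plus strand.
Notch3: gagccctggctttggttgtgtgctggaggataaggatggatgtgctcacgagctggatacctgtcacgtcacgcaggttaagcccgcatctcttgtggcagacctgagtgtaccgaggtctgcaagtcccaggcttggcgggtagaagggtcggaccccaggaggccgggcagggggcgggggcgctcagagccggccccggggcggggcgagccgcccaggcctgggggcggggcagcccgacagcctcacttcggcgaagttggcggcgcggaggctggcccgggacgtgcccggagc
Rgs5: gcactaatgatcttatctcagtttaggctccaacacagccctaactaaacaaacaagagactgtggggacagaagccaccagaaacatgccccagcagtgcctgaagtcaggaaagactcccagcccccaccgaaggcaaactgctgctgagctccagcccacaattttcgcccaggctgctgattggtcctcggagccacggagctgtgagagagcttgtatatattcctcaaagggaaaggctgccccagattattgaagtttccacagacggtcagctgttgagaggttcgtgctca
Vtn: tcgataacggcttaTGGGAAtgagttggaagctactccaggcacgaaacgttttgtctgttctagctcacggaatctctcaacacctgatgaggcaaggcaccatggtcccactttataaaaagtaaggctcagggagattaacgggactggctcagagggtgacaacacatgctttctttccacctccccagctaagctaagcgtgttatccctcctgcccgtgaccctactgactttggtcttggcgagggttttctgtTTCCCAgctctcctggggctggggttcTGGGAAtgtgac
The letters TGGGAA occur on either strand in 25.6% of 32851 mouse promoter windows of the same length. They were found 3 times in the window of Vtn, once each in those of Abcc9 and Acta2, and not in those of Notch3 and Rgs5. These are matches of letters and not measured sites. The window of Abcc9, chr6:142702225-142702524 on the minus strand, lies wholly inside the span of the gene, which ends at chr6:142702766.

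Per kilobase of exon, the pericyte genes Rgs5 and Vtn were the most abundant members. In wild-type frontal cortex Rgs5, a regulator of G protein signalling, stood at 27.5 ± 1.76 CPM per kb (SD, n = 6) and Vtn, the matrix protein vitronectin, at 24.0 ± 3.64 CPM per kb (SD, n = 6). They were followed by Acta2, smooth muscle actin, at 6.25 ± 0.893 CPM per kb and Pdgfrb at 5.47 ± 0.558 CPM per kb, a pair whose spreads overlapped. Tagln, the actin-binding protein transgelin, stood at 3.48 ± 0.426, Notch3 at 2.89 ± 0.219, Myh11, the smooth muscle myosin heavy chain, at 2.12 ± 0.339 and Abcc9, a subunit of the ATP-sensitive potassium channel of pericytes, at 1.33 ± 0.0826 CPM per kb. Counts behind these levels ran from 90 to 271 reads per library for Tagln, the least counted member, and from 2877 to 4691 for Rgs5, so Tagln carried the most counting error. In bulk tissue, fewer cells of a type and less RNA per cell cannot be told apart.

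**Figure D1:**
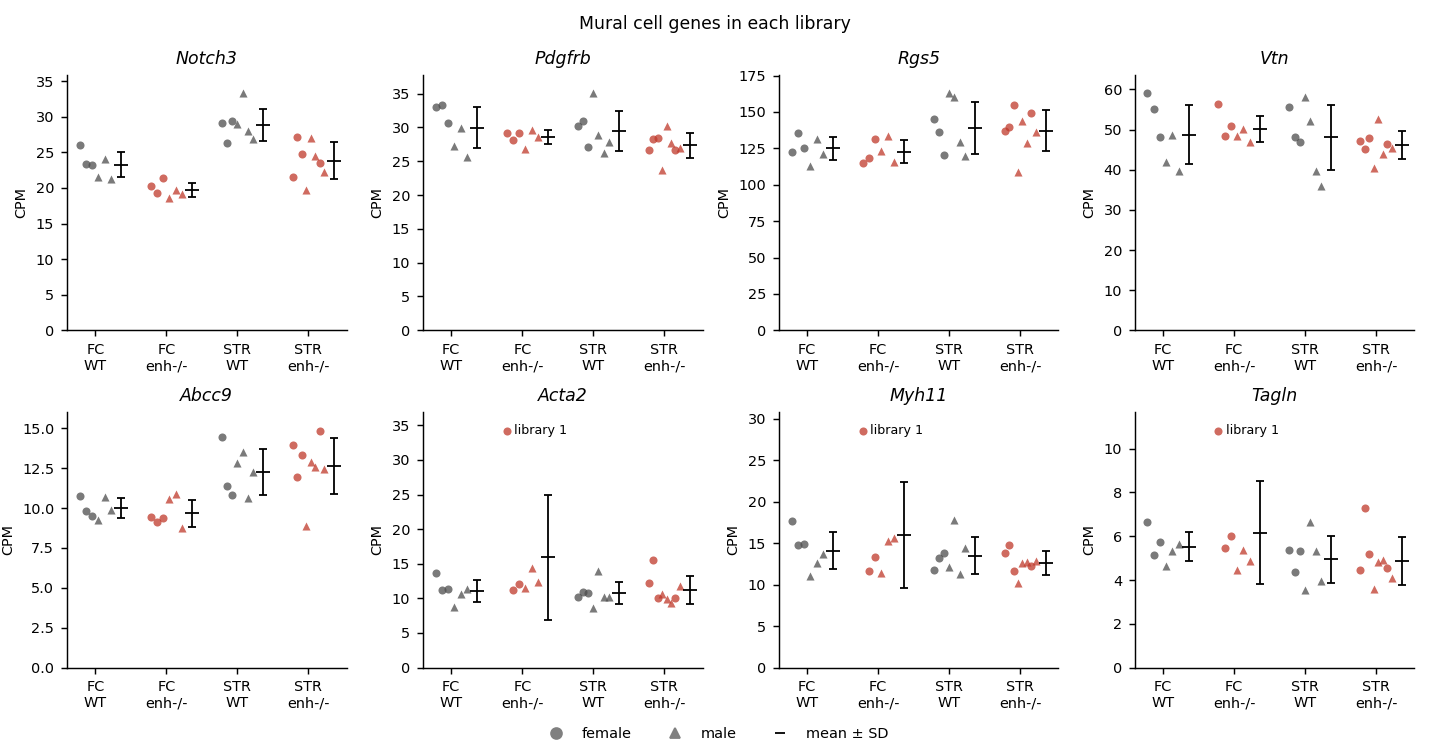
Level of the 8 mural genes in each library (y axis, CPM with TMM scaling, from 0) for wild-type (grey) and Igf2enh-/- (red) mice in frontal cortex (FC) and striatum (STR); circles are females, triangles males, and bars the mean ± SD of each group. Notch3 sits lower in Igf2enh-/- mice in both regions (means 23.3 and 19.7 CPM in frontal cortex, 28.9 and 23.8 CPM in striatum), and library 1 stands above the other libraries for Acta2, Myh11 and Tagln.

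Notch3 was lower in Igf2enh-/- mice in both regions. In frontal cortex the 6 Igf2enh-/- libraries had 18.6, 19.2, 19.2, 19.7, 20.2 and 21.3 CPM (median 19.5) and the 6 wild-type libraries 21.2, 21.5, 23.3, 23.4, 24.1 and 26.0 CPM (median 23.3). The groups touched at a single library, since 5 of the 6 Igf2enh-/- libraries lay below every wild-type library and the other was within their range. The means differed by -15.2% and the log2 fold change was -0.24 (SE 0.0479, 95% interval -0.34 to -0.14). Since Notch3 was chosen on this contrast, its place among the genes that passed there was fixed by the choice and is not a test. It was the 1 member among the 0.38% of the 13936 genes tested that were past the 0.05 level after adjustment (edgeR, quasi-likelihood), and it was not among them when any of the 12 libraries was left out, with a log2 fold change then between -0.26 and -0.21.

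In striatum the direction of Notch3 was the same. The genes were chosen with earlier results of these data known, and libraries of the regions may share mice. The striatal values are therefore no independent test of the frontal cortex difference. The 8 Igf2enh-/- libraries ran from 19.7 to 27.2 CPM (median 24.0) and the 7 wild-type libraries from 26.3 to 33.3 CPM (median 29.0). Of the Igf2enh-/- libraries 6 lay below every wild-type library and 2 (libraries 15 and 21) within their range. The means differed by -17.5%. The log2 fold change of -0.28 (SE 0.073, 95% interval -0.43 to -0.12) had an unadjusted p of 0.00184 and did not pass after adjustment over all genes (adjusted p = 0.224, edgeR quasi-likelihood test with Benjamini-Hochberg adjustment). The adjusted p was 0.0484 in DESeq2's Wald test and lay between 0.0484 and 0.451 over all alternatives. Here 0.036% of 13875 genes passed, and 0 of the 8 members did, with 1 member, Notch3, at an unadjusted p under 0.05. The ranges of the genotypes did not overlap at all for 1.31% of genes in frontal cortex and 0.231% in striatum, and for 0 of the 8 members in either region.

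The pericyte genes beside Notch3 stood close together in both genotypes. Pdgfrb had 26.7 to 29.6 CPM (median 28.8) in Igf2enh-/- and 25.7 to 33.3 CPM (median 30.2) in wild-type frontal cortex, a log2 fold change of -0.07 (SE 0.0516). In striatum its range was 23.7 to 30.2 CPM (median 27.4) in Igf2enh-/- and 26.3 to 35.0 CPM (median 28.9) in wild-type mice, with a log2 fold change of -0.11 (95% interval -0.24 to 0.03, adjusted p = 0.632 in edgeR). All of its Igf2enh-/- libraries lay within the wild-type range in frontal cortex, and 7 of 8 did in striatum.

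Rgs5 differed by -0.03 (SE 0.0504) in frontal cortex, where Igf2enh-/- libraries ran from 115 to 134 CPM (median 121) and wild-type libraries from 113 to 136 CPM (median 124). In striatum its log2 fold change was -0.02 (95% interval -0.20 to 0.16, adjusted p = 0.954 in edgeR), with ranges of 109 to 155 and 119 to 163 CPM. The Igf2enh-/- libraries of Rgs5 were inside the wild-type range in all cases but striatal library 19. Vtn differed by 0.05 (SE 0.0659) in frontal cortex (46.9 to 56.3 against 39.7 to 59.0 CPM) and by -0.06 (95% interval -0.25 to 0.13, adjusted p = 0.884 in edgeR) in striatum (40.4 to 52.6 against 35.97 to 58.1 CPM). Abcc9 differed by -0.05 (SE 0.0676) in frontal cortex (8.74 to 10.9 against 9.23 to 10.7 CPM) and by 0.03 (95% interval -0.17 to 0.23, adjusted p = 0.94 in edgeR) in striatum (8.897 to 14.9 against 10.6 to 14.4 CPM). The groups of both genes overlapped over most of their range.

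The contractile genes pointed upward in Igf2enh-/- frontal cortex, Myh11 and Tagln through a single library and Acta2 in large part through it. Acta2 had 11.3, 11.5, 12.0, 12.3, 14.4 and 34.2 CPM in the 6 Igf2enh-/- libraries, the last being library 1 from a female, and 8.71 to 13.7 CPM (median 11.2) in wild-type libraries. Myh11 stood at 28.6 CPM in library 1 and at 11.4 to 15.6 CPM in the other 5 Igf2enh-/- libraries, beside 11.1 to 17.6 CPM (median 14.2) in wild-type libraries. Tagln stood at 10.8 CPM in library 1 and at 4.45 to 6.03 CPM in the other 5, beside 4.63 to 6.64 CPM (median 5.50) in wild-type libraries. For all 3 genes library 1 was the highest of the 12 libraries and the rest of its group lay among or near the wild-type libraries. The log2 fold changes in frontal cortex were 0.50 (SE 0.229) for Acta2, 0.18 (SE 0.177) for Myh11 and 0.14 (SE 0.158) for Tagln with library 1, and 0.16, -0.05 and -0.06 without it.

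Library 1 was also highest for 11 of the 16 other smooth muscle genes and 10 of the 16 fibroblast genes examined. Its Notch3 level of 20.2 CPM was within the range of the other Igf2enh-/- libraries. In striatum Acta2 differed by 0.06 (95% interval -0.19 to 0.30, adjusted p = 0.919), Myh11 by -0.10 (95% interval -0.31 to 0.12, adjusted p = 0.807) and Tagln by -0.04 (95% interval -0.36 to 0.28, adjusted p = 0.956), all by edgeR's quasi-likelihood test. Striatal ranges were 9.38 to 15.6 and 8.62 to 13.9 CPM for Acta2, 10.2 to 14.8 and 11.3 to 17.8 CPM for Myh11, and 3.61 to 7.31 and 3.56 to 6.67 CPM for Tagln, Igf2enh-/- first. The groups overlapped, with library 15 the highest Igf2enh-/- library for all 3.

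**Figure D2:**
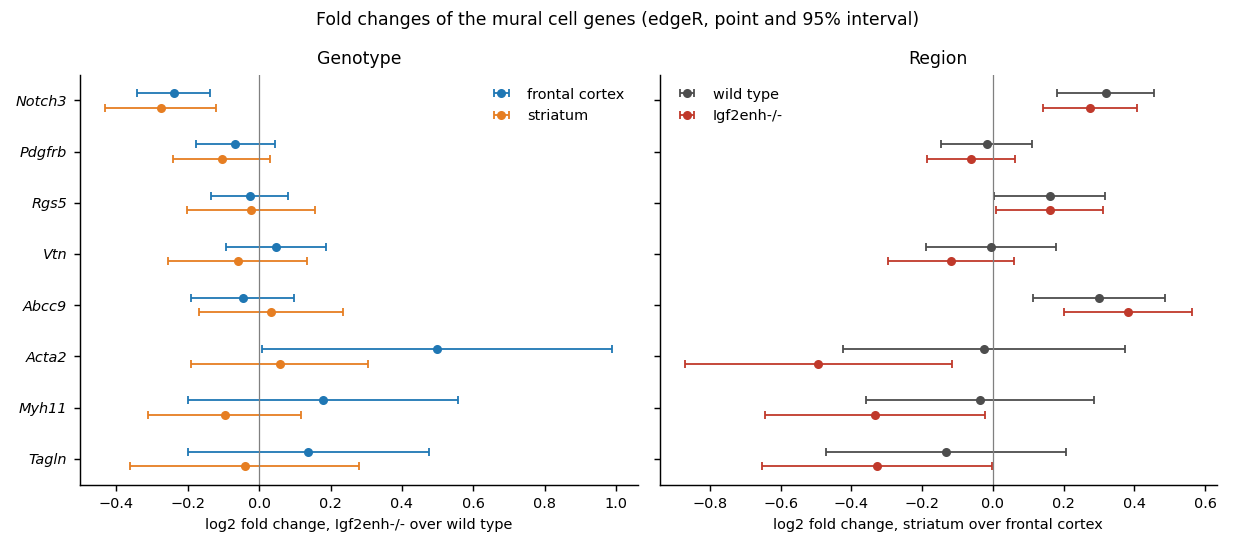
Log2 fold changes of the 8 mural genes with 95% intervals from edgeR, for Igf2enh-/- over wild type in each region (left) and for striatum over frontal cortex in each genotype (right). On the left only the Notch3 intervals lie wholly below 0 in both regions (-0.24 and -0.28), and on the right the intervals of Notch3, Abcc9 and Rgs5 lie above 0 in both genotypes, that of Rgs5 with its lower end at 0.00 in wild-type mice.

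None of the other pericyte and smooth muscle genes passed for genotype. Of 18 other pericyte genes 16 were tested, and in frontal cortex 8 were higher and 8 lower in Igf2enh-/- mice (median log2 fold change 0.01, beside 0.00 over all genes), with 0 passing and 1 at an unadjusted p under 0.05 in edgeR, where 13.5% of all genes tested in frontal cortex and 10.0% in striatum lay under that p. In striatum 11 of the 16 were lower (median -0.15), with 0 passing and 3 at an unadjusted p under 0.05. The striatal values ran from -0.44 for Cd248 to 0.13 for Slc6a20a. Of 16 other smooth muscle genes only 9 passed the filter, and 5 were higher in frontal cortex (median 0.04) and 4 in striatum (median -0.04), with 0 passing in either and 1 in each at an unadjusted p under 0.05. Without library 1 the frontal cortex median of these smooth muscle genes was -0.04.

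Markers of neighbouring cells gave the following levels. Of 23 endothelial genes 15 were lower in Igf2enh-/- frontal cortex (13 without library 1) and 17 in striatum (medians -0.02 and -0.03). At an unadjusted p under 0.05 in edgeR there were 6 of the 23 in frontal cortex, beside 13.5% of all genes. In striatum there were 7, beside 10.0%. The 1 that passed (4.35% of the list, beside 0.38% of all genes) was Itm2a, a membrane protein, at -0.26 in frontal cortex (-0.25 in striatum, where it did not pass). Its call held in 3 of the 12 fits that left out a library. The endothelial sum was 639 to 723 CPM in Igf2enh-/- and 638 to 749 CPM in wild-type frontal cortex, and 538 to 620 and 564 to 737 CPM in striatum. Of 16 fibroblast genes 15 were higher in Igf2enh-/- frontal cortex (median 0.20) with 0 passing and 5 at an unadjusted p under 0.05 in edgeR (13.5% of all genes), and without library 1, the highest for 10 of them, 15 were higher (median 0.13) with 3 at that p. Their sum ran from 188 to 292 CPM in Igf2enh-/- and from 148 to 294 CPM in wild-type libraries. In striatum 9 of the 12 tested were higher (median 0.10), and the sums were 85.4 to 143 and 76.3 to 98.5 CPM. The part of endothelial or fibroblast content in the level of Notch3 was not tested.

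In edgeR's quasi-likelihood test no gene of the Notch pathway examined beside Notch3 passed for genotype. The 3 other receptors, Notch1, Notch2 and Notch4, lay between 0.02 and 0.12 in frontal cortex and between 0.00 and 0.12 in striatum on the log2 scale. The 4 ligands tested, Dll1, Dll4, Jag1 and Jag2, lay between -0.34 and 0.05 in frontal cortex and between -0.19 and 0.11 in striatum. Of the 6 targets, 5 were lower in each region (medians -0.02 and -0.02), with Hes1, a repressor that Notch activates in many cells, at -0.35 and -0.52, and with Heyl, a target known from vascular smooth muscle, the highest at 0.23 and 0.17. Hes1 in frontal cortex passed in 3 alternatives, the likelihood ratio test (adjusted p = 0.0458, edgeR), DESeq2 (0.0492) and the fit with no filter (0.00412).

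In these lists and in the 16 genes that process or transmit the signal, such as the secretase subunits and Rbpj, 0 genes passed in either region by edgeR. At an unadjusted p under 0.05 the counts in frontal cortex were 1 ligand, 0 receptors, 1 target and 1 processing gene, beside 13.5% of all genes. In striatum they were 0, 0, 0 and 6 of the 16 processing genes, beside 10.0%, a larger share of that list than of all genes. The processing genes ran from -0.23 for Lfng to 0.12 for Psenen in frontal cortex, and from -0.23 for Lfng to 0.21 for Psenen in striatum. Of the PDGF genes, Pdgfb, the endothelial ligand of PDGFRB, differed by -0.11 in frontal cortex and -0.18 in striatum (adjusted p = 0.542 in striatum, edgeR), and 0 of the 5 genes passed, with 1 and 2 at an unadjusted p under 0.05. Library 1 was the highest in frontal cortex for 4 of these 5 genes, and without it Pdgfb was at -0.26 there and passed (adjusted p = 0.0374, edgeR).

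**Figure D3:**
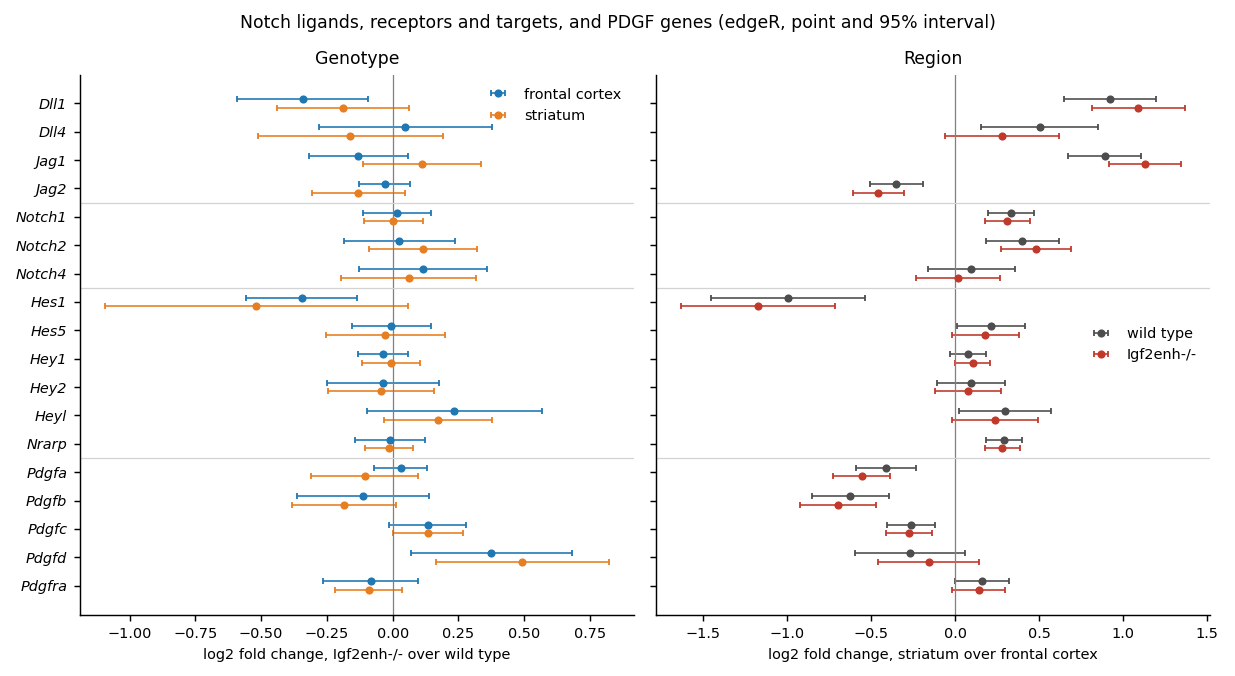
Log2 fold changes with 95% intervals from edgeR for Notch ligands, receptors and targets and for PDGF genes, Igf2enh-/- over wild type (left) and striatum over frontal cortex (right). Genotype differences scatter around 0 with 0 genes passing, while Dll1 and Jag1 (0.92 and 0.89 in wild-type mice) are higher and Hes1 (-0.99) and Pdgfb (-0.62) lower in striatum.

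None of the genes close to Notch3 on chromosome 17 had a genotype call in the main edgeR test. Of the genes whose nearest end lay within 1 Mb, 26 were tested in frontal cortex and 27 in striatum. In frontal cortex 12 were lower and 14 higher in Igf2enh-/- mice (median 0.02), and in striatum 14 were lower and 13 higher (median -0.0014). By edgeR 0 passed in either region, with 4 and 2 at an unadjusted p under 0.05 (13.5% and 10.0% of all genes). Rrp1b, the nearest tested gene on the side of lower coordinates at 58.0 kb, differed by 0.01 in frontal cortex and by -0.04 in striatum.

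Only 1 neighbour had a lower log2 fold change than Notch3 in each region, Sik1, a kinase induced by neuronal activity, 265 kb away, at -0.65 (SE 0.214) in frontal cortex and -0.46 (SE 0.141) in striatum (adjusted p = 0.313, edgeR). In frontal cortex Sik1 passed in the fit with no filter (adjusted p = 0.000146, edgeR), and without library 1 it was at -0.84 (adjusted p = 0.0572). Glo1, the glyoxalase gene 1.51 Mb away at chr17:30592861-30612659, lay outside the window. It was lower by far more than any neighbour, at -1.16 (SE 0.0614) in frontal cortex and -1.21 (SE 0.058, adjusted p = 2.75e-08 by edgeR) in striatum.

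**Figure D4:**
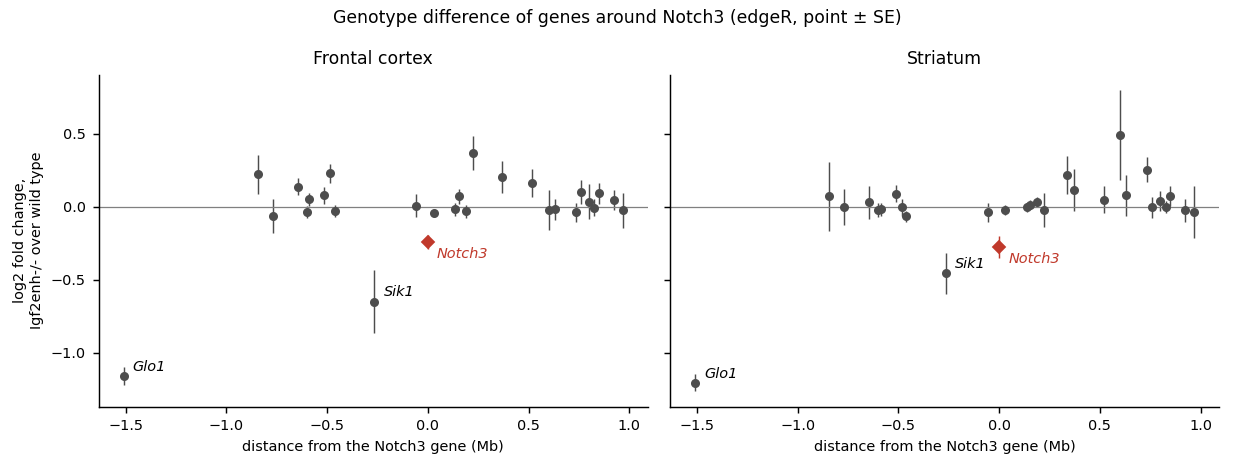
Log2 fold change, Igf2enh-/- over wild type (y axis, point ± SE from edgeR), against distance from the Notch3 gene in Mb (x axis, 0 is Notch3, red) in frontal cortex and striatum. Most neighbours sit near 0 on both sides of Notch3, and Sik1 (-0.65 and -0.46) and Glo1 (-1.16 and -1.21) sit below it.

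Between regions, Notch3 and Abcc9 were higher in striatum in both genotypes. Wild-type Notch3 ran from 21.2 to 26.0 CPM in frontal cortex and from 26.3 to 33.3 CPM in striatum. Its log2 fold change was 0.32 (SE 0.0663, adjusted p = 0.000152). In Igf2enh-/- mice it was 0.27 (SE 0.0649, adjusted p = 0.000574). Both values hold the frontal cortex levels of Notch3 that were known when the set was chosen. A low Igf2enh-/- frontal cortex level raises the second value, so for Notch3 these are a description and no independent test. By group means the order of Notch3 was Igf2enh-/- frontal cortex (19.7 ± 0.962 CPM, SD, n = 6), wild-type frontal cortex (23.3 ± 1.76, n = 6), Igf2enh-/- striatum (23.8 ± 2.62, n = 8) and wild-type striatum (28.9 ± 2.27, n = 7), and the middle pair lay within their spread. These and the next adjusted p-values are from edgeR's quasi-likelihood test over 13414 genes, of which 67.7% passed in wild-type and 68.9% in Igf2enh-/- mice, so a call here is what most genes gave.

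Of the 8 members 2 passed in wild-type mice and 3 in Igf2enh-/- mice. Abcc9 rose from 9.23 to 10.7 CPM in wild-type frontal cortex to 10.6 to 14.4 CPM in striatum (log2 fold change 0.30, SE 0.0902, adjusted p = 0.00497), and by 0.38 (SE 0.0878, adjusted p = 0.000436) in Igf2enh-/- mice. The third was Acta2, lower by -0.49 (SE 0.183, adjusted p = 0.0196) in Igf2enh-/- striatum than in Igf2enh-/- frontal cortex. Without library 1 that value was -0.15 (adjusted p = 0.256), and in wild-type mice it was -0.03 (95% interval -0.42 to 0.37). Abcc9 in wild-type mice did not pass with the RNA integrity number in the model (0.21, adjusted p = 0.159), while Notch3 passed there (0.32, adjusted p = 0.00627).

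The other 5 members did not pass between regions in either genotype. Rgs5 differed by 0.16 in both (adjusted p = 0.0655 and 0.0569), Pdgfrb by -0.02 and -0.06, Vtn by -0.01 and -0.12, Myh11 by -0.04 and -0.33 (adjusted p = 0.0525 in Igf2enh-/- mice) and Tagln by -0.13 and -0.33 (adjusted p = 0.0683 in Igf2enh-/- mice), wild type first. Without library 1 the Igf2enh-/- values were -0.10 for Myh11 and -0.13 for Tagln. With a library left out, Rgs5 stayed short of the threshold in 23 of 27 fits in wild-type and 17 of 27 in Igf2enh-/- mice, and passed in the others. The region by genotype term, which holds the frontal cortex contrast known when the genes were chosen, was passed by 0% of the 13414 genes in edgeR, with 405 genes (3.02%) and 0 of the 8 members at an unadjusted p under 0.05. For Acta2 that term was -0.47 (95% interval -1.02 to 0.08), and -0.10 without library 1.

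Other mural genes split between the regions. Of the 16 other pericyte genes tested, 4 passed as higher and 5 as lower in wild-type striatum, and 2 and 5 in Igf2enh-/- striatum. These are 56.2% and 43.8% of the list, below the 67.7% and 68.9% of all genes. Mcam, an adhesion molecule of pericytes and smooth muscle, rose by 1.02 and Art3, a pericyte-enriched gene of the ADP-ribosyltransferase family, by 0.98 in wild-type mice, and both passed in Igf2enh-/- mice too (0.90 and 0.99). Slc6a20a (-1.32), Foxc1 (-0.85), Tbx18 (-0.82), Anpep (-0.76) and Cd248 (-0.42) were lower in wild-type striatum, and in Igf2enh-/- striatum they were at -1.34, -0.99, -1.30, -1.04 and -0.78. Among the other smooth muscle genes Ramp1, a receptor subunit for the vasodilator CGRP (0.50 and 0.52), and Smtn, smoothelin (0.23 and 0.23), were higher in striatum in both genotypes, while Casq2 (0.67) passed as higher and Pln (-0.50) as lower in Igf2enh-/- mice, Pln not without library 1.

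All 12 fibroblast genes tested were lower in striatum in both genotypes (medians -1.28 and -1.40), among them the transporter Slc6a13 (-1.86 and -2.30) and Fmod, fibromodulin (-2.94 and -3.40). Of the 23 endothelial genes 4 (17.4%) passed in each genotype (medians 0.02 and -0.02), beside 67.7% and 68.9% of all genes, with Cd34 at -2.26 and -2.31. Foxc1, Tbx18, Slc6a20a, Anpep and Cd248 are also known from fibroblasts of the brain's coverings, and the part of that tissue in their regional difference was not tested.

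Between regions most genes passed, and the Notch and PDGF genes are read against that share. In wild-type mice 4 of the 4 ligands, 2 of the 3 receptors beside Notch3, 3 of the 6 targets, 9 of the 16 processing genes and 3 of the 5 PDGF genes passed, and in Igf2enh-/- mice 3, 2, 2, 10 and 3, beside the 67.7% and 68.9% of all genes. Of the ligands Dll1 (0.92 and 1.09) and Jag1 (0.89 and 1.13) were higher and Jag2 (-0.35 and -0.46) lower in striatum in both genotypes, and Dll4, the endothelial ligand, was at 0.50 in wild-type mice and at 0.28 in Igf2enh-/- mice, where it did not pass. The receptors Notch1 (0.33 and 0.31) and Notch2 (0.40 and 0.48) were higher with Notch3. Among targets Hes1 was lower (-0.99 and -1.17) and Nrarp, a feedback inhibitor, higher (0.29 and 0.28), while Heyl was at 0.30 (adjusted p = 0.0486, edgeR) in wild-type mice and at 0.24 in Igf2enh-/- mice, where it did not pass. The call of Heyl held in 13 of the 27 fits that left out a library. Rbpj was lower (-0.58 and -0.53). The PDGF ligands Pdgfa (-0.41 and -0.56), Pdgfb (-0.62 and -0.70) and Pdgfc (-0.26 and -0.27) were lower in striatum, where their receptor Pdgfrb differed by -0.02 and -0.06. Most of these genes are made by neurons and glia as well as by vessels, and cells were not separated here.

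No member passed for sex. Of all genes tested by edgeR, 0.0431% passed between males and females in frontal cortex and 0.0432% in striatum, and 0 of the 8 members did in either region. At an unadjusted p under 0.05 there were 3 members in frontal cortex, beside 7.56% of all genes, and 0 in striatum, beside 10.8%. In frontal cortex 7 of the 8 members were lower in males (median log2 fold change -0.17). So were 16 of the 16 fibroblast, 19 of the 23 endothelial, 8 of the 9 other smooth muscle and 11 of the 16 other pericyte genes tested. Over all genes 6960 of 13936 were higher in males. Library 1, the highest for 11 of 16 other smooth muscle and 10 of 16 fibroblast genes, is from a female. So is library 2, which had the highest fibroblast sum (294 CPM). How far these directions rest on those libraries was not tested. The 3 members under that p were Vtn at -0.21 (unadjusted p = 0.00737, adjusted p = 0.528, and 0.0499 in the fit with no filter), Tagln at -0.39 (adjusted p = 0.624, and -0.19 without library 1) and Pdgfrb at -0.13 (adjusted p = 0.614). Notch3 differed by -0.10 (95% interval -0.20 to 0.00, adjusted p = 0.662).

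Levels of the members were also followed from library to library. Log2 CPM (with 0.5 CPM added) was centred within each genotype and sex of a region and correlated between all pairs of members, 56 relations over 12 frontal cortex and 15 striatal libraries. Exact permutation tests within genotype and sex were used in both regions, with Benjamini-Hochberg adjustment over the 56. Of these 5 passed by Pearson's r. In frontal cortex they were Acta2 with Tagln (r = 0.98, rho = 0.98, permutation p = 0.000772, the smallest the design allows, adjusted p = 0.0259), Myh11 with Tagln (r = 0.97, rho = 0.92) and Acta2 with Myh11 (r = 0.96, rho = 0.94), each with an adjusted p of 0.0259 for r and 0.0388 to 0.0589 for rho. Library 1 carried part of this, since r was 0.95, 0.85 and 0.81 without it and only 1 of the 3 then passed.

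In striatum the pairs that passed were Rgs5 with Vtn (r = 0.91, rho = 0.92, permutation p = 0.00163, adjusted p = 0.0259) and Notch3 with Tagln (r = 0.78, rho = 0.76, permutation p = 0.001, adjusted p = 0.0259 for r and 0.0589 for rho). Leaving out the 2 libraries farthest from the median of the first gene gave r = 0.87 and 0.83 for these pairs, and 0 of the 56 relations passed with that many libraries. The median r over the 6 pairs of Pdgfrb, Rgs5, Vtn and Abcc9 was 0.52 in frontal cortex but 0.74 in striatum, and the 12 pairs of a pericyte with a contractile gene had a median r of 0.23 and 0.09. Over the 3 contractile pairs the striatal median was 0.62, and 0.32 without the 2 farthest libraries. These medians are a description, and their differences were not tested.

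The median r of Notch3 in frontal cortex was 0.64 with the 4 pericyte genes and 0.23 with the 3 contractile genes, and without library 1 it was 0.65 and 0.58. In striatum the medians were 0.49 and 0.51. Its r with Pdgfrb was 0.76 (rho = 0.74, permutation p = 0.0193, adjusted p = 0.0982) in frontal cortex and 0.47 (adjusted p = 0.301) in striatum, and neither passed. Libraries of a region differ in depth, and whether depth, dissection or cell content moves the members together was not tested.

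**Figure D5:**
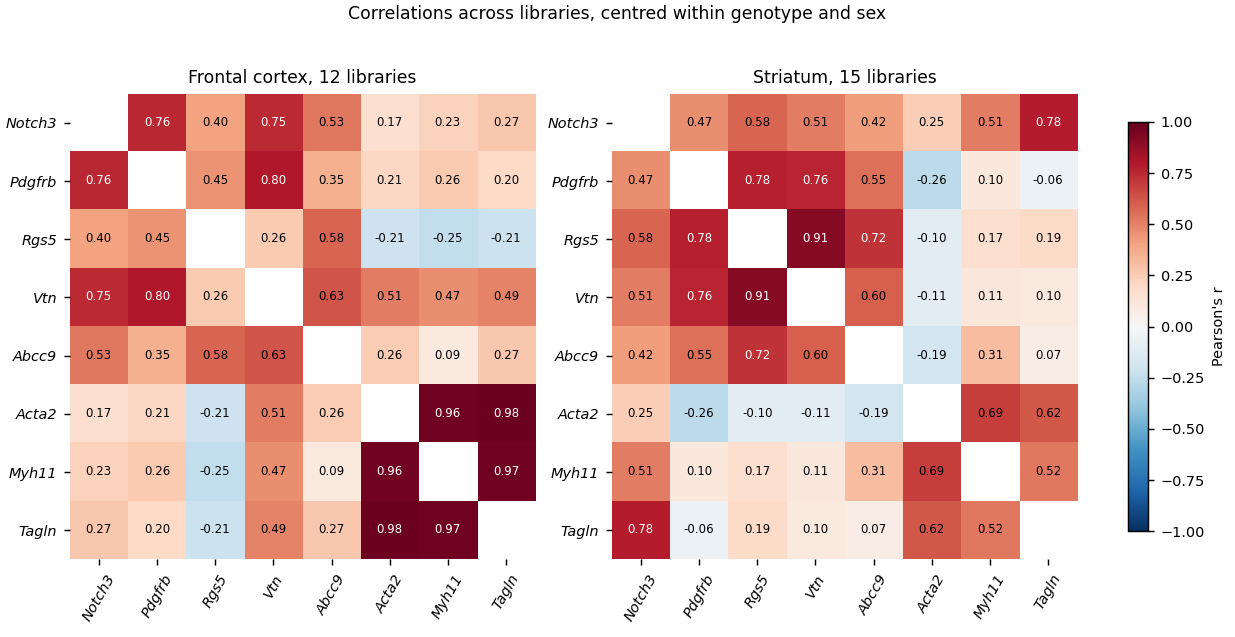
Pearson's r between the levels of each pair of mural genes across the 12 frontal cortex (left) and 15 striatal (right) libraries, centred within genotype and sex; red is positive and blue negative. In frontal cortex r was 0.96 to 0.98 among Acta2, Myh11 and Tagln, and in striatum 0.55 to 0.91 among Pdgfrb, Rgs5, Vtn and Abcc9.

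Members were also compared with the mean level of endothelial, fibroblast and choroid plexus genes, 48 relations of which 2 passed, both with endothelial genes in striatum. Vtn correlated with the endothelial mean at r = 0.95 (rho = 0.93, permutation p = 0.000494, adjusted p = 0.0237) and Pdgfrb at r = 0.80 (rho = 0.77, adjusted p = 0.0313). Neither passed without library 20 or without the 2 farthest libraries. Leaving out those 2 gave r = 0.92 for Vtn and 0.59 for Pdgfrb. Notch3 with the endothelial mean had r = 0.61 (adjusted p = 0.238) in frontal cortex and 0.48 (adjusted p = 0.213) in striatum.

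The genes whose levels were most like that of Notch3 differed between regions. Over 12 frontal cortex libraries and 13935 genes they were Rnf135 (r = 0.90), ENSMUSG00000103041, Gm14410, Pcca and Tmem132e, and Pdgfrb ranked 70 and Vtn 81. Over 15 striatal libraries and 13874 genes they were Ptprc (r = 0.89), Tns1, Nup37, Gtf2h2 and Tns2 (r = 0.79), with Tagln next at rank 6 and Rgs5 at rank 278. These ranks are a description over few libraries and carry no test.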

How the data were processed

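Per the labels and the study's methods, the authors demultiplexed reads with bcl2fastq (1.9.0), used Trim Galore (0.5.0) for trimming and STAR for alignment to GRCm38, and deposited raw read counts per gene, in a table for each region. The strand setting of the counting is not given in the sources used here. The members and gene lists were chosen with earlier results of these data known. Counts were scaled by the trimmed mean of M-values (TMM), and CPM are counts brought to a common total by the scaled library size. Genes reaching 1 CPM in each fitted library were tested by edgeR's quasi-likelihood F-test (edgeR 4.0.16 in R 4.3.3) with Benjamini-Hochberg adjustment over all genes tested and a threshold of 0.05, with genotype and sex as terms within each region. Both regions were fitted together for region and region by genotype, taking libraries as independent, so p-values measure the spread between libraries. Log2 fold changes are of Igf2enh-/- to wild type, striatum to frontal cortex and male to female. Named were the members, genes of the lists that passed or had the smallest p, Notch and PDGF genes, neighbours of Notch3 within 1 Mb with Glo1, and the 5 genes most like Notch3 per region. Correlations used permutation within genotype and sex. Positions and promoters are RefSeq's (GRCm38.p6), and exon lengths are from GENCODE by Ensembl identifier. Alternatives were DESeq2 1.42.0, the likelihood ratio test of edgeR, voom in limma 3.58.1, other scalings and filters, models with RNA integrity number or without sex, and leaving out each library. Correlations and list summaries without library 1 were added after seeing the data. Fits and permutation were tested on simulated data. Python 3.11.15 with matplotlib 3.10.9 drew the figures. The human samples of the study were not analysed here.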

Additional observations from a re-analysis of the deposited data

Results flagged for a closer look

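A library was marked when its gap to the nearest library of its group was too large a share of the group's range by Dixon's test at the 95% level, which chance gives in about 1 in 20 groups. Of 52 groups examined, the 8 members and 5 lists in 4 groups each, 10 gave such a library, 5 of them for members. In Igf2enh-/- frontal cortex library 1 was high for Acta2 (34.2 CPM, next 14.4, gap 0.865 of the range), Myh11 (28.6, next 15.6, gap 0.755) and Tagln (10.8, next 6.03, gap 0.753). The same library was highest for the sum of other pericyte genes (170 CPM, next 135, gap 0.729), with Zic1 at 38.8 CPM there and at most 20.5 CPM in the rest of its group. It was lowest for the sum of choroid plexus genes (172 CPM, next 233, gap 0.661), most of which was Enpp2, a gene that oligodendrocytes also express, at 162 CPM there and at least 227 CPM in the rest of its group. Of the 14 choroid plexus genes 6 were highest of the 12 frontal cortex libraries in library 1. In Igf2enh-/- striatum library 15 was high for Acta2 (15.6 CPM, next 12.3, gap 0.534) and Tagln (7.31, next 5.195, gap 0.571), for the fibroblast sum (143 CPM, next 92.1, gap 0.883) and for the choroid plexus sum (4655 CPM, next 365, gap 0.959). Library 19 there had the highest sum of other pericyte genes (224 CPM, next 133, gap 0.877), a value carried by Zic1, at 122 CPM in that library and at most 23.6 CPM in the rest of its group. It had the lowest Notch3, Pdgfrb, Rgs5, Vtn, Abcc9, Myh11 and Tagln of its group.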

How the results depend on the processing

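The lower Notch3 kept its sign under every alternative run in both regions. Numbers of genes called depended on the tool. For genotype in frontal cortex (53 genes) the likelihood ratio test called 232, DESeq2 242, no filter 459 and the RNA integrity number 29, with 8 to 99 when a library was left out. Members called there were 0 by total count scaling, with the RNA integrity number, without sex and without any library (0 to 0), and 2 without a filter. For genotype in striatum (5 genes) the counts were 56, 112 and 1 member by DESeq2, 3 by limma-voom and without sex, 13 by filterByExpr and 10 with no filter, and 3 to 8 with a library left out. For sex (6 and 6 genes) they were 28 and 12 by the likelihood ratio test, 21 and 16 by DESeq2, 14 and 12 by filterByExpr and 185 (1 member) and 14 with no filter. Between regions 1 member passed in wild-type mice with the RNA integrity number, and in Igf2enh-/- mice 5 by DESeq2 and 2 to 6 with a library left out (2 without library 1, 6 without library 22). With the RNA integrity number in the model the regional calls of Abcc9, Dll4, Heyl, Jag2, Hes1, Pdgfc and Cd248 in wild-type mice and of Acta2 and Pln in Igf2enh-/- mice did not pass. The causes were not tested. Correlations among members passed 0 times without the 2 farthest libraries, 15 when centred within genotype only and 3 without library 1, and those with cell type lists 0, 5 and, without library 20, 0 times.

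Values near 0 changed sign. With the RNA integrity number these were Rrp1b in frontal cortex (-0.017), Tagln in striatum (0.0098) and, between regions in wild-type mice, Myh11 (0.12), Pdgfrb (0.032) and Acta2 (0.097). By total count Vtn (0.020) and Pdgfrb (0.0089), and by filterByExpr Vtn (0.0031), changed sign there. With each library left out, Tagln in frontal cortex ran from -0.060 to 0.20, Myh11 from -0.047 to 0.29 and Rrp1b from -0.050 to 0.057. In striatum Rgs5 ran from -0.074 to 0.021, Abcc9 from -0.020 to 0.092, Tagln from -0.13 to 0.060 and Acta2 from -0.018 to 0.13. Between regions in wild-type mice Vtn ran from -0.068 to 0.050, Myh11 from -0.13 to 0.022, Pdgfrb from -0.068 to 0.013 and Acta2 from -0.12 to 0.016. No paired analysis was possible because the labels do not tie libraries to mice.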
